A study of Mus musculus with 12 samples.

Results

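RNA of sorted microglia was compared between miKO-Sham and WT-Sham, that is, between mice with and without deletion of Hdac3 in microglia, neither of which had a stroke. The comparison rests on 6 of the 12 libraries of the series, 3 miKO-Sham and 3 WT-Sham, and on all 16451 genes that passed a filter on low counts; the other 6 libraries come from the same genotypes after transient focal cerebral ischemia (tFCI). WT mice carried HDAC3loxp/loxp with both Cx3cr1 alleles intact, and miKO mice carried HDAC3loxp/loxp with CreER, a recombinase that acts after tamoxifen, in 1 Cx3cr1 allele. All mice were male, received tamoxifen for 5 days at 6 to 8 weeks of age, and underwent Sham surgery (anesthesia and exposure of the artery without occlusion) at least 1 month later. The loss of HDAC3 and the loss of 1 Cx3cr1 copy came together in miKO mice and cannot be told apart. Each library pooled CD11b+CD45int cells of 3 to 4 hemispheres, so that a replicate is a pool and not a mouse.

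HDAC3 is a class I histone deacetylase that works inside the NCoR/SMRT corepressor complex. The complex is brought to DNA by transcription factors, among them nuclear receptors, and removes acetyl groups from histones, which usually keeps the bound gene at a low level. In macrophages and microglia it is known to act on inflammatory, interferon and lipid genes. Microglia in the healthy brain carry a set of homeostatic genes, such as P2ry12 and Tmem119, and around damage or amyloid they take on an injury-associated set led by Apoe, Clec7a and Cst7.

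The labels place replicate 1 of each group in batch 1 and replicates 2 and 3 in batch 2. miKO-Sham replicate 2 went against that label: over 9318 genes, the shift from batch 2 to batch 1 in the other groups correlated with the difference between miKO-Sham replicates 1 and 3 at r = 0.363 and with that between replicates 2 and 3 at r = 0.382, but with that between replicates 1 and 2 at r = -0.0618 (across genes, so that no test was made). miKO-Sham replicates 1 and 2, called the close pair below, had the smallest distance of the 12 pairs within groups, a chi-square of 2.821 per degree of freedom where the other pairs had 3.653 to 76.64. By the correlation of log2 CPM they were not the closest, at r = 0.97579 against 0.98085 for WT-Sham replicates 2 and 3 and 0.97965 for WT-tFCI replicates 2 and 3. Their distance exceeded counting noise, and they were kept as 2 libraries. Whether they came from separate animals was not tested. All results below were also computed with replicate 2 placed in batch 1, with each library left out in turn, and with the close pair averaged into 1 library, and these values are given where they change a call or a count. The 6 libraries held 7956138 to 8860921 counts on genes.

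Hdac3 (ENSMUSG00000024454.16) was measured first as a check of the labels. Its level, in CPM (counts scaled to library size after TMM normalization), was 35, 44 and 46.4 in WT-Sham replicates 1 to 3 and 25.8, 25 and 20.9 in miKO-Sham, so that every miKO library lay below every WT library. It fell to 0.569 times the WT mean (log2 fold change -0.81, standard error 0.16, edgeR adjusted p = 0.00281; edgeR stands here and below for its quasi-likelihood test with Benjamini-Hochberg adjustment over all genes tested). The part of the transcript that recombination removes was not read separately, since the counts are per gene. Cx3cr1, the fractalkine receptor that microglia use to sense neuronal signals, was at 3291, 3921 and 4373 CPM in WT-Sham and at 1092, 1052 and 1446 CPM in miKO-Sham. This fall (log2 fold change -1.68, standard error 0.18, edgeR adjusted p = 1.07e-05) took Cx3cr1 to 0.311 times the WT mean, in a gene that CreER occupies by design.

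Among the other members of the HDAC3 corepressor complex, Tbl1x and Tbl1xr1, which encode related WD-repeat subunits that hold the complex together, were higher in miKO-Sham. Tbl1x was at 83.3, 76.1 and 80.7 CPM in WT-Sham and 155, 146 and 137 CPM in miKO-Sham (log2 fold change 0.87, standard error 0.15, edgeR adjusted p = 0.00109). Tbl1xr1 rose less (log2 fold change 0.62, edgeR adjusted p = 0.00473) and was no longer called without WT-Sham replicate 3 or miKO-Sham replicate 1. The other 4 of 7 members tested, which include both corepressors, did not pass the test. Of 10 other classical HDACs, 2 fell and 8 did not pass. Over all genes tested, 15.4% were called by the thresholds given below, 8.58% higher and 6.8% lower. Hdac9, a class IIa deacetylase, fell by 1.41 on the log2 scale (edgeR adjusted p = 0.000572), and Hdac1, a class I deacetylase of other complexes, fell by 0.68 (edgeR adjusted p = 0.00749), although reads of Hdac1 can be shared with a near-identical copy.

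With the thresholds the study used, a log2 fold change beyond 0.58 in either direction at an adjusted p under 0.05, 2530 of 16451 genes (15.4%) differed between miKO-Sham and WT-Sham. Of these, 1411 (8.58% of all tested) were higher in miKO-Sham and 1119 (6.8%) were lower. The log2 fold change was above 2 for 328 of the genes that rose and below -2 for 265 of those that fell, and the median over all genes was 0.0373. The 3 libraries of each group did not overlap in 1239 of the genes that rose and in 1088 of those that fell; over all genes tested, 33.2% had libraries that did not overlap. Protein-coding genes made up 1191 of the genes that rose and 995 of those that fell. With miKO-Sham replicate 2 placed in batch 1, 2508 genes were called, and 2224 of the 2530 were among them; with the close pair averaged in batch 1, 2098 were called, of which 1975 were shared.

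**Figure D1:**
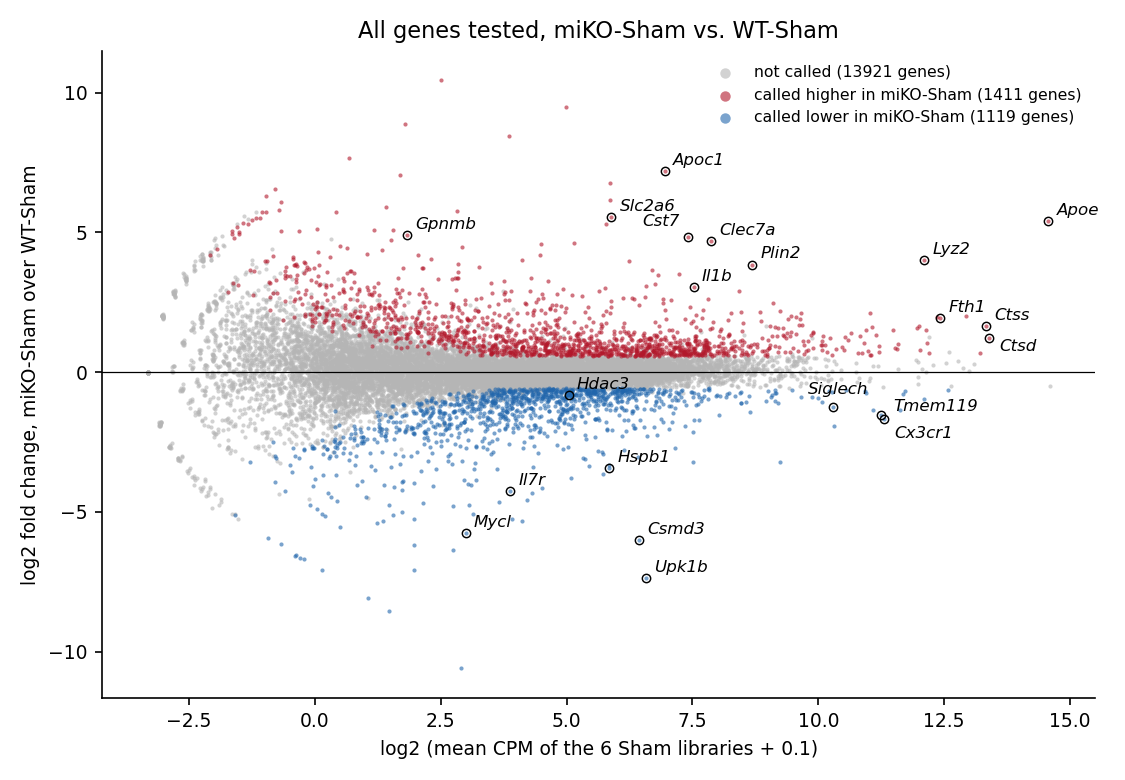
Log2 fold change of each gene in miKO-Sham over WT-Sham (vertical axis) against its mean CPM over the 6 Sham libraries (log2 horizontal axis, 0.1 CPM added), 1 point per gene. Of 16451 genes, the 1411 called higher are red and the 1119 called lower are blue, and named genes are circled; Apoe and Lyz2 are high at the right, and Upk1b and Csmd3 are the lowest of the circled genes.

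The genes that rose most by ratio included lipid carriers, a cathepsin inhibitor, transporters and surface receptors of phagocytes. Apoe (ENSMUSG00000002985.16, GRCm38 chromosome 7, 19696109 to 19699188), the main lipid carrier of the brain, was at 1512, 978 and 897 CPM in WT-Sham and 64078, 65549 and 12774 CPM in miKO-Sham (log2 fold change 5.39, standard error 0.56, edgeR adjusted p = 9.02e-06). Every miKO library lay above every WT library, a condition of its choice, and within miKO-Sham replicate 3 lay far below the close pair. Its mean of 47467 ± 30054 CPM (SD, n = 3) therefore carries a large error, and Apoe stayed called with replicate 2 placed in batch 1 and with any 1 library left out. The neighbouring apolipoprotein genes were also higher. Apoc1 (chromosome 7, 19689481 to 19692660) was at 0.120, 5.15 and 0.103 CPM in WT-Sham and 338, 371 and 26.9 CPM in miKO-Sham, and WT-Sham replicate 2 alone held more than a trace of it (edgeR adjusted p = 0.000184). Apoc4 (chromosome 7, 19678083 to 19681479) had 0, 6 and 1 counts in WT-Sham and 123, 151 and 25 in miKO-Sham (edgeR adjusted p = 0.000275).

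Slc2a6, a sugar transporter of the lysosomal membrane, was among the most even of these increases. It was at 2.28, 2.13 and 3.08 CPM in WT-Sham and 126, 122 and 100.3 CPM in miKO-Sham, a 46.5-fold ratio of means (log2 fold change 5.54, standard error 0.21, edgeR adjusted p = 7.94e-10). Cst7, which encodes the cathepsin inhibitor cystatin F, was at 11.8, 8.85 and 13.6 CPM against 393, 394 and 197 CPM (log2 fold change 4.84, standard error 0.28, edgeR adjusted p = 5.75e-08). Replicate 3 was again the lowest miKO library but stood far above all WT libraries. Lyz2, the macrophage lysozyme, rose 16.1-fold, from 664, 443 and 442 CPM to 9101, 8520.2 and 7063 CPM (log2 fold change 4.01, edgeR adjusted p = 6.79e-08). Plin2, the coat protein of lipid droplets, rose 14.4-fold, from 56.4, 48 and 57.5 CPM to 961, 1002 and 355 CPM. The others at the top were AB124611 (39.5-fold), Aoah, which deacylates lipopolysaccharide (24.7-fold), the inhibitory receptor Cd300lf (16.2-fold), the zinc transporter Slc39a4 (15.8-fold), the hyaluronan receptor Cd44 (14.5-fold) and the chemokine Ccl5 (12.1-fold). For all of these, every miKO library lay above every WT library, which was a condition of their choice.

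The genes that fell most were of many kinds, and several were nearly silent in miKO-Sham. Upk1b, a tetraspanin known from urothelium, was at 165, 186 and 219 CPM in WT-Sham and 0.278, 1.11 and 1.92 CPM in miKO-Sham. Csmd3, a large membrane protein with complement-like domains (ENSMUSG00000022311.15, chromosome 15, 47580637 to 48792063), was at 146, 175 and 189 CPM against 1.80, 2.22 and 3.84 CPM (log2 fold change -6.01, standard error 0.21, edgeR adjusted p = 4.24e-10). For both genes the WT libraries lay close together and far above the miKO libraries. Mycl, a member of the MYC family, had 93, 164 and 164 counts in WT-Sham and 1, 4 and 1 in miKO-Sham. The potassium channel subunit Kcnk12 fell from 38.5, 25.8 and 24.2 CPM to 0.139, 1.39 and 0.640 CPM (log2 fold change -5.27, edgeR adjusted p = 3.01e-06). The phospholipid transporter Abcb4 (-4.32), the interleukin-7 receptor Il7r (-4.27), the cadherin Fat3 (-3.86), the collagen Col6a3 (-3.85), Tnfrsf13b, a receptor for BAFF and APRIL (-3.65), Gprasp2 (-3.48) and the protease Adamts16 (-3.46) followed, each with its log2 fold change in brackets. That the groups did not overlap in any of them was a condition of their choice, and they were called under each alternative run.

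**Figure D2:**
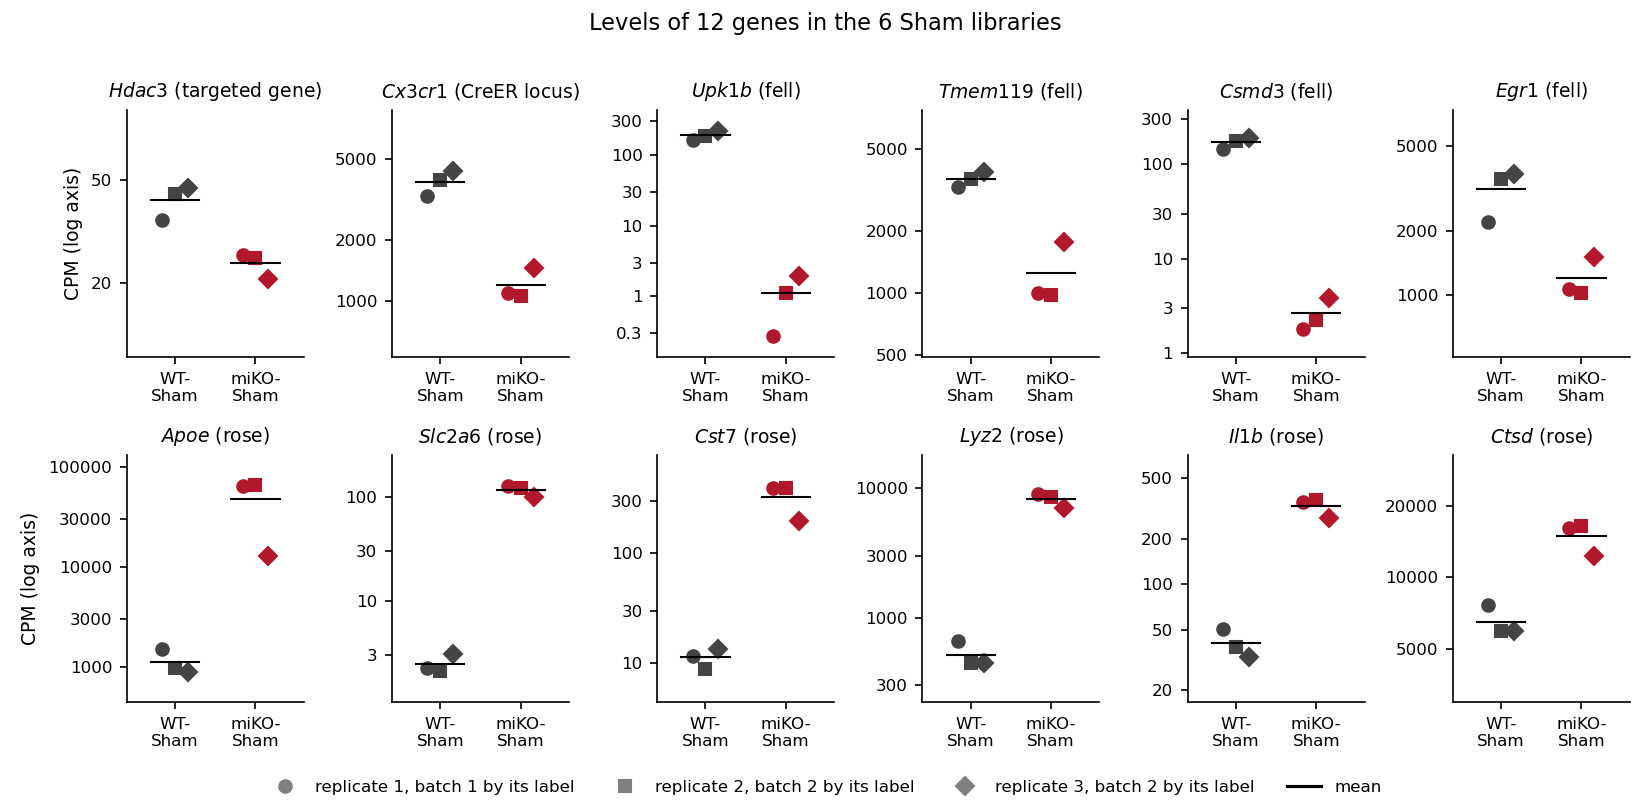
CPM on log axes for 12 genes in the 3 WT-Sham (grey) and 3 miKO-Sham (red) libraries; the marker shape gives the replicate and the line the group mean. The groups do not overlap for any of the 12 genes, which was a condition of choice for the largest rises and falls. miKO-Sham replicates 1 and 2 sit side by side in most panels while replicate 3 stands apart, for example at 12774 CPM of Apoe.

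By absolute level, the largest called differences were carried by lysosomal and iron genes besides Apoe and Lyz2. Ctss, the cathepsin S that microglia make in quantity, was at 4863, 4960.1 and 5170.2 CPM in WT-Sham and 15993, 15434 and 15380.5 CPM in miKO-Sham (log2 fold change 1.65, standard error 0.19, edgeR adjusted p = 1.96e-05). The aspartic protease Ctsd was at 7628, 5929 and 5942 CPM against 16238, 16494 and 12339.5 CPM (log2 fold change 1.21, edgeR adjusted p = 0.000255). Fth1, the ferritin heavy chain that stores iron, rose 3.81-fold, Psap, the precursor of the saposins, 2.81-fold and the membrane protein Itm2b 2.05-fold. C1qb, a chain of complement C1q, was at 9274, 6508 and 6012 CPM in WT-Sham and 12315, 12307 and 10347 CPM in miKO-Sham (log2 fold change 0.69, edgeR adjusted p = 0.0192). Its call was lost without WT-Sham replicate 2 or 3, without either library of the close pair, and with the pair averaged in batch 1.

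The genes were then read by group, against the 8.58% of all genes that rose and the 6.8% that fell. Of 27 injury-associated genes tested, 22 rose, none fell and 5 did not pass the test, with a median log2 fold change of 2.03 against 0.0373 over all genes. Clec7a, the beta-glucan receptor dectin-1, was at 20.6, 16.2 and 15.9 CPM in WT-Sham and 546, 540.2 and 258 CPM in miKO-Sham (log2 fold change 4.67, standard error 0.33, edgeR adjusted p = 3.93e-07). Axl, a receptor that binds dying cells, was at 14.1, 8.96 and 11.8 CPM against 101, 89.5 and 72.2 CPM. Itgax, the integrin chain CD11c, rose 4.08-fold (edgeR adjusted p = 2.34e-05). Gpnmb, a glycoprotein of lysosomes, had only 0, 1 and 5 counts in WT-Sham and 49, 50 and 50 in miKO-Sham, and so is given without a fold. Lilrb4a, an inhibitory receptor, rose 10.4-fold, though its reads can be shared with a near-identical copy.

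Of 30 homeostatic genes tested, 13 fell, 2 rose and 15 did not pass, with a median of -0.51; Upk1b was put in this list with its value known. Tmem119 was at 3264, 3594 and 3883 CPM in WT-Sham and 997, 973 and 1769 CPM in miKO-Sham (log2 fold change -1.54, standard error 0.21, edgeR adjusted p = 9.39e-05). Selplg, a ligand of selectins, fell by 1.36 on the log2 scale, the lectin Siglech by 1.24 and the oxysterol receptor Gpr183 by 1.17, with no overlap of groups in any of them. P2ry12, the ADP receptor that guides microglial processes, was at 2358, 3059 and 3399 CPM against 1903, 1838 and 2338 CPM and did not pass (log2 fold change -0.52, edgeR adjusted p = 0.0958). Fcrls, a microglial Fc receptor-like gene, went the other way and rose from 2734, 3136 and 3327 CPM to 5394, 5296 and 5006 CPM (log2 fold change 0.79, edgeR adjusted p = 0.0042). The homeostatic set was therefore lower in most, but not in all, of its called members.

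**Figure D3:**
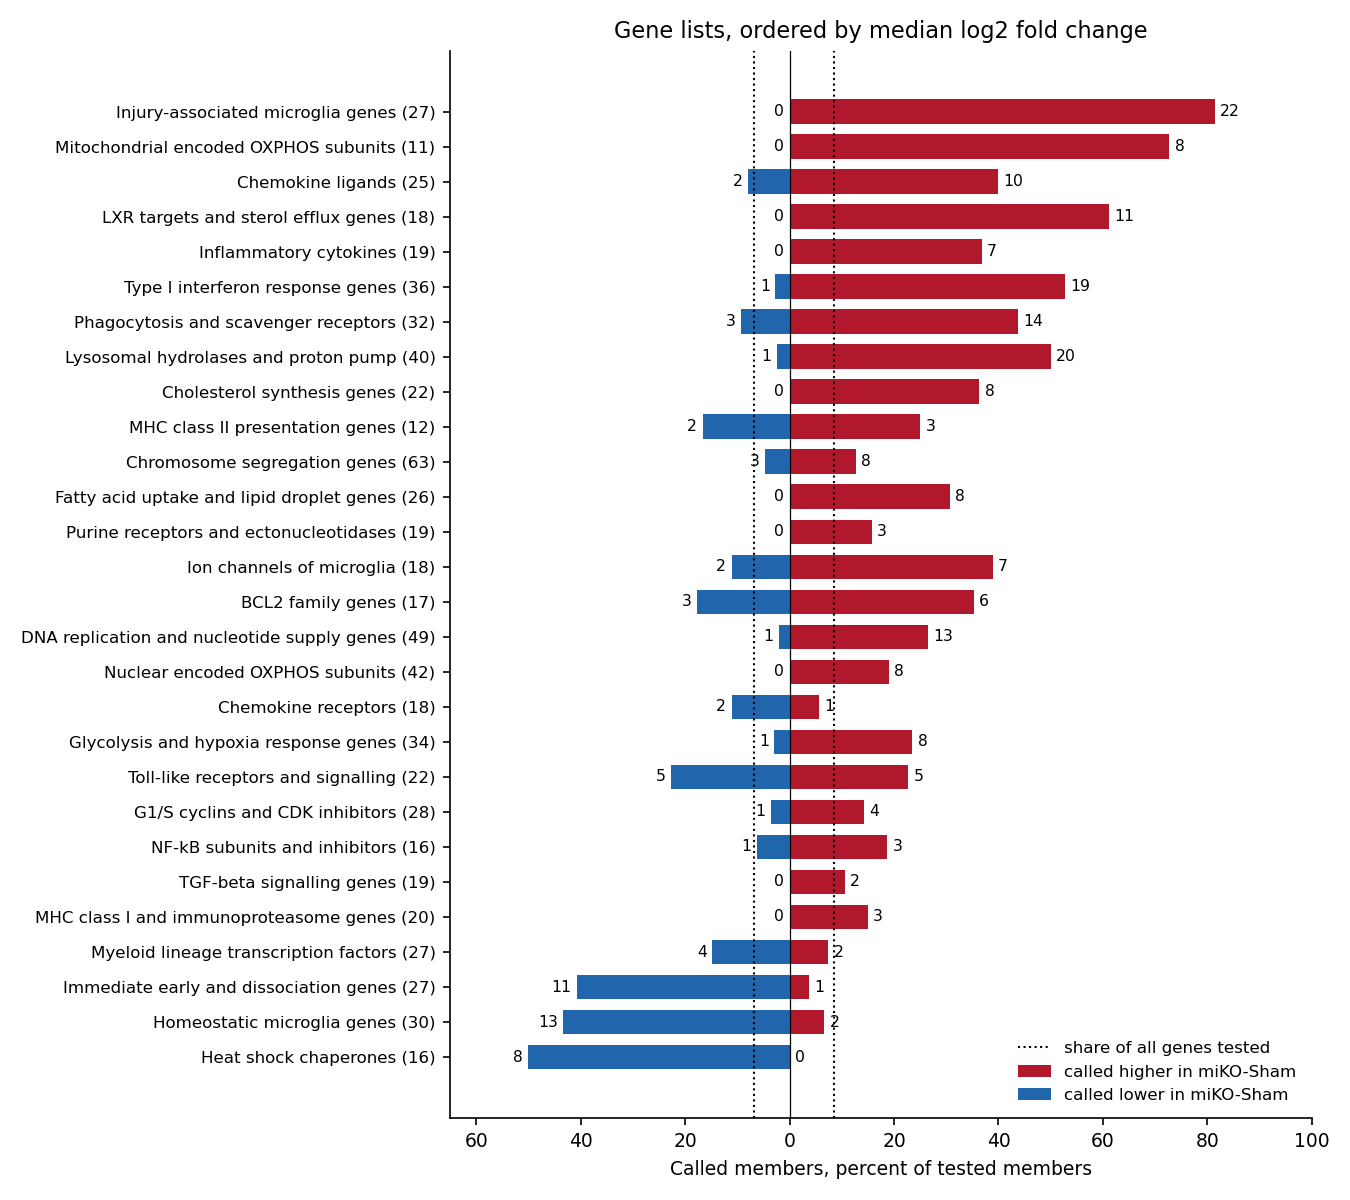
Share of tested members called higher (red, to the right) or lower (blue, to the left) in miKO-Sham for 28 gene lists, ordered by median log2 fold change, with the number called beside each bar and the number tested in brackets. Dotted lines mark the 8.58% and 6.8% of all 16451 genes; injury-associated genes head the order with 22 of 27 higher, and heat shock chaperones end it with 8 of 16 lower.

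Lipid genes rose in each of the 3 lists read, and none of their members fell. Of 18 LXR targets and sterol efflux genes, 11 rose (median 0.92). Abca1 and Abcg1, the pumps that load cholesterol onto apolipoproteins, rose 2.42-fold and 2.52-fold, and Npc2, which carries cholesterol out of the lysosome, rose 2.45-fold from 422, 332 and 351 CPM to 985, 964 and 759.5 CPM. Of 22 cholesterol synthesis genes, 8 rose (median 0.59), and 5 did in the libraries of batch 2 alone or without WT-Sham replicate 1. The synthesis enzyme Mvd was at 11.2, 11.3 and 7.28 CPM in WT-Sham and 37.2, 35.1 and 28.1 CPM in miKO-Sham (log2 fold change 1.75, standard error 0.20, edgeR adjusted p = 2.15e-05), and the enzymes Fdft1 and Dhcr7 rose by 1.34 and 1.13 on the log2 scale. Reads of Fdft1 can be shared with the cathepsin gene Ctsb, which lies on the other strand and also rose. Of 26 genes of fatty acid uptake and lipid droplets, 8 rose (median 0.51), and 5 without WT-Sham replicate 3. Lipa, the acid lipase of the lysosome, rose 3.35-fold, the droplet protein Plin3 2.87-fold and the lipoprotein lipase Lpl 2.08-fold. Markers of lipid uptake and of sterol synthesis thus rose in the same libraries.

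Of 40 lysosomal hydrolases and proton pump subunits, 20 rose, 1 fell and 19 did not pass (median 0.59). Ctsb, cathepsin B, was at 2749, 3285 and 3534 CPM in WT-Sham and 13027, 12457 and 12068 CPM in miKO-Sham (log2 fold change 2.00, standard error 0.20, edgeR adjusted p = 7.59e-06). Ctsz, cathepsin Z, was at 2057, 2000.5 and 1935 CPM against 6102, 5970.1 and 5834 CPM, and Lamp1, which lines the lysosomal membrane, rose 2.85-fold. Ctsa, Gla and Atp6v1a, named after their values were seen because their upstream stretches hold the motif described next, rose by 1.05, 0.98 and 0.60 on the log2 scale. Atp6v1a was called in 10 of 19 settings and lost its call, among others, without WT-Sham replicate 2.

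The E-box TCACGTGA, known from promoters of lysosomal genes, was searched on both strands in the 250 bases before each gene start of the RefSeq promoter table (GRCm38.p6). It lay before 186 of 11011 tested genes in the table (1.69%), 20 of 1008 that rose (1.98%) and 7 of 804 that fell (0.871%). Of the lysosomal genes in the table it lay before 4 of 30, and these 4 were among the 19 called. Short stretches around the match are shown because they hold the letters shared by the 4 genes, with the motif in capitals, 5′ to 3′ on the strand of the gene.
Ctsd, chr7:142387908-142387937, minus strand: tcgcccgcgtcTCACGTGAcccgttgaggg
Ctsa, chr2:164833743-164833772, plus strand: gaacaatgagcaaactgTCACGTGAtgcag
Gla, chrX:134601215-134601244, minus strand: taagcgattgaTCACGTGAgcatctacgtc
Atp6v1a, chr16:44139373-44139402, minus strand: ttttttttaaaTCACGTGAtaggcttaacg
These matches are given as a description of the letters and not as sites of binding.

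Inflammatory genes moved in both directions, with more rises than falls. Of 19 cytokines, 7 rose and none fell (median 0.91). Il1b, the precursor of interleukin-1 beta, was at 50.7, 38.1 and 33 CPM in WT-Sham and 348, 358 and 274 CPM in miKO-Sham (log2 fold change 3.03, standard error 0.26, edgeR adjusted p = 1.44e-06). Tnf was at 66.6, 93 and 70.3 CPM against 388, 392 and 252 CPM (log2 fold change 2.21, standard error 0.24, edgeR adjusted p = 1.56e-05). Il12b, a subunit of interleukins 12 and 23, was low throughout, with 2, 0 and 4 counts in WT-Sham and 18, 16 and 31 in miKO-Sham (edgeR adjusted p = 0.000572). Of 25 chemokine ligands, 10 rose and 2 fell (median 0.98). Ccl7 and Ccl2, which attract monocytes, rose 5.06-fold and 3.77-fold, whereas Ccl9 fell from 143, 124 and 105 CPM to 14.4, 11.7 and 28.1 CPM (log2 fold change -2.79, standard error 0.28, edgeR adjusted p = 7.59e-06). Among 18 chemokine receptors, 1 rose and 2 fell. The receptor that rose, Ccr7, was called in 15 of 19 settings and lost its call, among others, with miKO-Sham replicate 2 placed in batch 1.

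Of 20 complement components and receptors, 7 rose and none fell (median 0.71). The anaphylatoxin receptors C5ar1 and C3ar1 rose 5.59-fold and 4.28-fold; C5ar1 was at 151, 163 and 188 CPM in WT-Sham and 908, 890.1 and 982 CPM in miKO-Sham. Cfp, the alternative pathway regulator properdin, rose 4.26-fold and was highest in replicate 3. Of 32 phagocytosis and scavenger receptors, 14 rose and 3 fell (median 0.60). Scarb1, which takes up cholesterol from lipoproteins, was at 30.3, 47.3 and 40.5 CPM against 242, 247 and 202 CPM (log2 fold change 2.58, standard error 0.17, edgeR adjusted p = 1.68e-07). The activating receptor Cd300lb rose 10.2-fold, the Fc receptor Fcgr4 5.05-fold and the scavenger receptor Msr1 4.29-fold.

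The 22 Toll-like receptors and signalling genes split evenly, with 5 higher, 5 lower and 12 that did not pass. Tlr2, which binds bacterial lipoproteins, was at 141, 149 and 144 CPM in WT-Sham and 342, 323 and 227 CPM in miKO-Sham (log2 fold change 1.06, edgeR adjusted p = 0.00387). Tlr3, the endosomal receptor of double-stranded RNA, fell by 1.25 on the log2 scale and Tlr12 by 1.02. These counts of 5 dropped to 3 with no batch term, and the higher count also without WT-Sham replicate 2 or 3 or miKO-Sham replicate 1, the lower without miKO-Sham replicate 2. Of 16 NF-kB subunits and inhibitors, 3 rose and 1 fell. Bcl3, an atypical inhibitor that acts in the nucleus, rose 2.91-fold. The member that fell, Tnfaip3, was called in 11 of 19 settings and lost its call, among others, with miKO-Sham replicate 2 placed in batch 1.

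**Figure D4:**
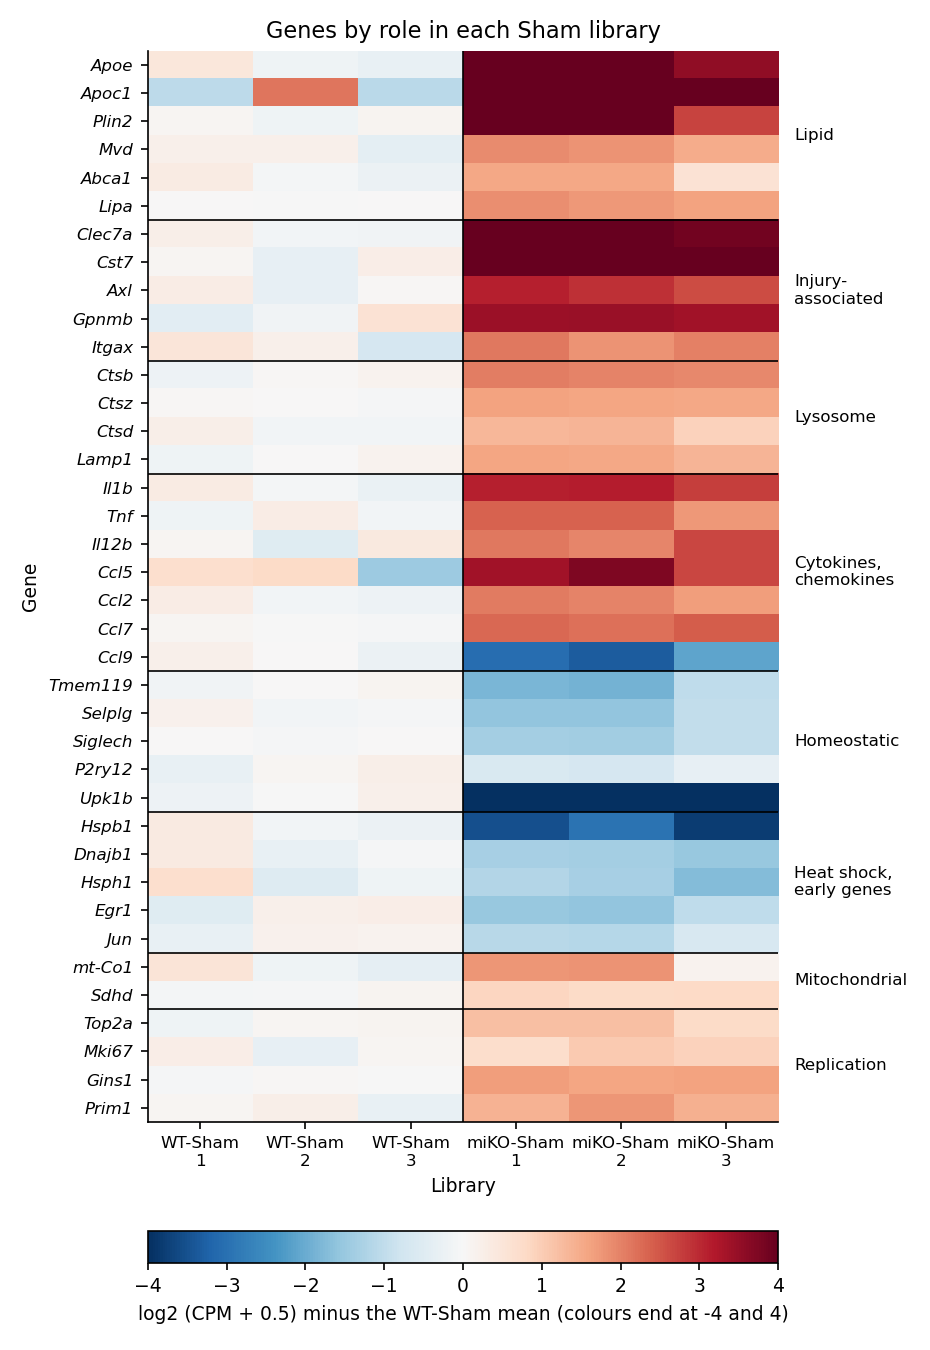
Difference of each library from the WT-Sham mean in log2 (CPM + 0.5), colours ending at -4 and 4, for 38 genes grouped by role (rows) in the 6 Sham libraries (columns). Red is above and blue below the WT mean; lipid, injury-associated, lysosomal and cytokine genes other than Ccl9 are red in all 3 miKO libraries, homeostatic and heat shock genes blue, and mt-Co1 is near the WT level in miKO-Sham replicate 3 alone.

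Of 36 type I interferon response genes, 19 rose, 1 fell and 16 did not pass (median 0.89). Ifitm3, which blocks virus entry, was at 43.9, 18.7 and 10.5 CPM in WT-Sham and 101, 85.3 and 90.4 CPM in miKO-Sham (log2 fold change 2.12, standard error 0.26, edgeR adjusted p = 4.57e-05). Ifi204, a DNA sensor with near-identical relatives, rose 4.38-fold, its relative Ifi207 3.20-fold, Oasl1 3.62-fold and the nucleic acid sensor Zbp1 2.85-fold. Most of these genes were at low levels, such as Zbp1 at 3.37, 2.24 and 1.64 CPM in WT-Sham and 6.53, 8.46 and 5.64 CPM in miKO-Sham.

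An interferon-stimulated element was searched in the same windows as GAAA, any 2 bases and GAAA, on both strands. It lay before 369 of 11011 tested genes (3.35%), 53 of 1008 that rose (5.26%), 29 of 804 that fell (3.61%), and 14 of 26 interferon response genes in the table (53.8%), 10 of which were among the 16 called. Stretches of 250 bases are shown for Ifi207, Isg15 and Bst2 because they hold 1, 3 and 2 matches, the latter 2 genes chosen after their values were seen; the matches are in capitals, overlapping matches run together, and each stretch ends at the base before the gene start.
Ifi207, chr1:173741810-173742059, minus strand: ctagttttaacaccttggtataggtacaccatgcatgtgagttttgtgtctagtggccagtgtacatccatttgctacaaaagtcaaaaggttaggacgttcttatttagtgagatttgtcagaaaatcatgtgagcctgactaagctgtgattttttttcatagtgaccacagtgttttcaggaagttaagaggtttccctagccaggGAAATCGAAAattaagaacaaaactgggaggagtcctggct
Isg15, chr4:156200819-156201068, minus strand: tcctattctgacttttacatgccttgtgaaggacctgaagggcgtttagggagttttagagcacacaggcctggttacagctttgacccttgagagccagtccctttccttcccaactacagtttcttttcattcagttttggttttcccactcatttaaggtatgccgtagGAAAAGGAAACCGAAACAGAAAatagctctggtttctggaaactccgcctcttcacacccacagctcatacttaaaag
Bst2, chr8:71537473-71537722, minus strand: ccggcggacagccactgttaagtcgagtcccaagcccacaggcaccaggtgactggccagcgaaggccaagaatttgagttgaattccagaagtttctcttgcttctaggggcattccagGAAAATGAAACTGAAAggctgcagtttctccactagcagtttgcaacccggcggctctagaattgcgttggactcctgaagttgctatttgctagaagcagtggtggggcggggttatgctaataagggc
Bst2, which tethers virus particles to the cell, was at 84, 86.5 and 65.1 CPM in WT-Sham and 179.5, 181 and 160.5 CPM in miKO-Sham, and Isg15, a ubiquitin-like protein, at 4.93, 4.82 and 2.67 CPM against 11.1, 9.57 and 6.79 CPM (log2 fold change 1.15, edgeR adjusted p = 0.00871). The call of Isg15, but not that of Bst2, was lost without WT-Sham replicate 3.

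Called MHC class II genes went both ways. Of 12 MHC class II genes, 3 rose and 2 fell, and of 20 MHC class I and immunoproteasome genes, 3 rose, none fell and 17 did not pass (median 0.00). H2-Oa and H2-Ob, the chains of H2-O, which restrains peptide loading on class II, both fell: H2-Oa was at 61.3, 35.7 and 36.6 CPM in WT-Sham and 10.00, 9.99 and 9.61 CPM in miKO-Sham (log2 fold change -2.11, standard error 0.32, edgeR adjusted p = 0.000273), and H2-Ob fell by 1.29. Ifi30, a lysosomal reductase that unfolds antigens, rose 3.06-fold. The class I heavy chain H2-D1 was at 1280.0, 1320.4 and 1266 CPM against 3275, 3229 and 3218 CPM (log2 fold change 1.33, standard error 0.13, edgeR adjusted p = 4.54e-06), and its partner B2m rose 2.03-fold.

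Heat shock chaperones and immediate early genes were lower in miKO-Sham. Of 16 chaperones, 8 fell and none rose (median -0.64). Dnajb1, a co-chaperone of HSP70, was at 735, 468 and 559 CPM in WT-Sham and 228, 223 and 199.8 CPM in miKO-Sham (log2 fold change -1.42, standard error 0.14, edgeR adjusted p = 5.31e-06). Hspb1 and Hspa1b, which have near-identical copies, fell by 3.43 and 1.95 on the log2 scale, and Hsph1 fell by 1.41. Of 27 immediate early and dissociation genes, which cells induce soon after a stimulus or when tissue is taken apart, 11 fell and 1 rose (median -0.49). Egr1 was at 2191, 3516 and 3709 CPM against 1064, 1016 and 1511 CPM (log2 fold change -1.36, standard error 0.17, edgeR adjusted p = 5.51e-05), Jun fell by 0.96 and Ier2 by 1.02. Ier3, the member that rose, went from 291, 303 and 251 CPM to 739, 748 and 479 CPM. The part of cell isolation in these differences was not tested. Among 27 myeloid lineage transcription factors, 2 rose and 4 fell. Nr4a1, an early nuclear receptor, fell by 1.08, the Kruppel-like factor Klf2 by 0.93 and Ets1 by 1.12.

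Of 11 mitochondrial encoded OXPHOS subunits, 8 rose and none fell (median 1.21), but this count moved with the placement of the close pair and with single libraries. mt-Co1, a subunit of cytochrome c oxidase whose reads can be shared with near-identical copies, was at 1240.5, 780.4 and 681 CPM in WT-Sham and 2988, 2996 and 965 CPM in miKO-Sham, so that replicate 3 lay within the WT range (log2 fold change 1.38, edgeR adjusted p = 0.00287). The mitochondrial share of counts was 1.418%, 0.6456% and 0.4872% in WT-Sham and 1.866%, 1.984% and 0.5592% in miKO-Sham, and it was higher in the batch 1 library than in the others of WT-Sham. The count of 8 dropped to 4 with replicate 2 placed in batch 1 or with the pair averaged, and to 1 with no batch term, without WT-Sham replicate 3, without miKO-Sham replicate 2 and with the pair averaged in batch 1. It was 3 without WT-Sham replicate 2 and 5 without WT-Sham replicate 1. Of 42 nuclear encoded subunits, 8 rose (median 0.33). This count was 2 with replicate 2 placed in batch 1, without WT-Sham replicate 3 or without miKO-Sham replicate 2. It was 3 with no batch term or with the pair averaged in batch 1, 4 without WT-Sham replicate 2 and 17 with replicate 1 placed in batch 2. Sdhd, the membrane anchor of complex II, was at 82.1, 83.6 and 93.3 CPM against 158, 146 and 151 CPM and was called in every setting. In glycolysis and the hypoxia response, 8 of 34 genes rose and 1 fell, with 5 higher without the batch term; Eno1, which has near-identical copies, and Aldoa rose by 1.57 and 0.90.

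Proliferation genes were at low levels, and more of them rose than fell, as was also so over all genes. Of 49 genes of DNA replication and nucleotide supply, 13 rose and 1 fell (median 0.33). Of this list 28.6% were called, against 15.4% of all genes. Gins1, a subunit of the replicative helicase, was at 4.81, 5.15 and 4.82 CPM in WT-Sham and 16.7, 15.5 and 16.1 CPM in miKO-Sham (log2 fold change 1.72, standard error 0.23, edgeR adjusted p = 9.25e-05). The primase subunits split: Prim1 rose from 2.28, 2.58 and 1.64 CPM to 6.39, 8.46 and 6.53 CPM, and Prim2 fell from 12.3, 12.3 and 11 CPM to 4.72, 4.86 and 6.66 CPM. Of 63 chromosome segregation genes, 8 rose and 3 fell (median 0.54), so that 17.5% were called, near the 15.4% of all genes. Top2a, the mitotic topoisomerase, was at 3.01, 3.70 and 3.80 CPM against 8.75, 8.60 and 6.28 CPM (log2 fold change 1.17, edgeR adjusted p = 0.000555), and Mki67, the proliferation marker Ki-67, rose 1.94-fold but lost its call without WT-Sham replicate 2. The condensin genes again split, Ncapg2 rising by 1.21 and Ncaph falling by 1.35. The counts of 13 and 8 dropped to 7 and 3 in a fit of the 6 Sham libraries alone, to 7 and 4 without WT-Sham replicate 2 and to 8 and 5 without miKO-Sham replicate 1. Of 28 cyclins, CDK inhibitors and other G1/S genes, 4 rose and 1 fell (17.9% called), with 2 higher without WT-Sham replicate 2. Cdkn2d, the inhibitor p19, was at 11.8, 12 and 12 CPM in WT-Sham and 53.5, 40.0 and 43.9 CPM in miKO-Sham (log2 fold change 1.94, standard error 0.15, edgeR adjusted p = 7.93e-07), and Cdkn1a, the inhibitor p21, rose 1.83-fold. Genes that drive and genes that halt the cycle were thus both among those that rose.

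Of 17 BCL2 family genes, 6 rose and 3 fell (median 0.33). The antiapoptotic Bcl2l1 rose by 0.81 and Bcl2a1d, which has near-identical copies, by 1.97, and the proapoptotic Bad rose by 0.97. Of 18 ion channels of microglia, 7 rose and 2 fell. Trpm2, a calcium channel opened by oxidative stress, was at 63.2, 78.3 and 66.9 CPM in WT-Sham and 275, 274 and 223 CPM in miKO-Sham (log2 fold change 1.91, standard error 0.20, edgeR adjusted p = 8.98e-06). Kcnj10, an inward rectifier, rose 5.36-fold, and Trpm4 fell by 1.06. Of 19 purine receptors and ectonucleotidases, 3 rose and none fell; P2rx4, an ATP-gated channel of reactive microglia, rose by 0.77 and P2rx1 by 1.10. Of 19 TGF-beta signalling genes, 2 rose, none fell and 17 did not pass.

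The sorted cells carried the markers of microglia in both groups, with summed levels of 27660.0 to 36520.0 CPM in WT-Sham and 26350.0 to 31060.0 CPM in miKO-Sham. All 10 microglia markers were detected in all 6 libraries, 1 rose (Fcrls), 3 fell (Cx3cr1, Tmem119 and Siglech) and 6 did not pass. The summed level of the 14 monocyte and macrophage markers was 559.0 to 833.2 CPM in WT-Sham and 7331 to 9199 CPM in miKO-Sham, and Lyz2 alone carried the increase. Without Lyz2, the other 13 summed to 118 to 171 CPM in WT-Sham and to 102 to 281 CPM in miKO-Sham, the highest in replicate 3. Of 13 border-associated macrophage markers, Stab1, Folr2 and Ms4a7 rose and none fell. Stab1 was at 583, 505 and 445 CPM in WT-Sham and 1498, 1576 and 1068 CPM in miKO-Sham, Folr2 rose 6.28-fold and Ms4a7 2.70-fold. Without Stab1, the other 12 summed to 122 to 147 CPM in WT-Sham and to 122, 117 and 408 CPM in miKO-Sham, so that these markers stood apart in miKO-Sham replicate 3.

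Markers of the other cell types that a sort could carry along were read in the same way. The 13 T and NK cell markers summed to 2.56 to 8.28 CPM in WT-Sham and 6.14 to 8.86 CPM in miKO-Sham, with 1 of them at 0 in all 6 libraries, and the 12 neuron markers to 4.36 to 6.12 CPM and 14.7 to 18.7 CPM. Rbfox3 carried that difference, with 15, 13 and 4 counts in WT-Sham and 82, 107 and 71 in miKO-Sham, and the other 11 summed to 2.90 to 5.02 CPM and 3.88 to 5.63 CPM. The 14 neutrophil markers summed to 640.2 to 1438 CPM in WT-Sham, with replicate 1 the highest, and to 1145 to 1178 CPM in miKO-Sham; of 13 tested, Mmp9 was called, at 1.80, 1.46 and 0.923 CPM against 3.19, 1.80 and 31.4 CPM, and its call was lost without miKO-Sham replicate 3 and without any 1 of the WT-Sham libraries. The 11 B cell markers summed to 436.1 to 536.6 CPM and 376.4 to 479.4 CPM; Cd79b fell from 34.3, 29.6 and 26.3 CPM to 2.78, 2.08 and 11 CPM and Cd22 rose from 8.53, 9.19 and 8.62 CPM to 47.3, 46.1 and 45.6 CPM. Dendritic cell markers other than Siglech summed to 38.1 to 57.1 CPM in WT-Sham and 23 to 31.2 CPM in miKO-Sham, and Batf3 fell by 1.28 with its call lost in the libraries of batch 2 alone. The summed astrocyte markers were at 183.4 to 201.0 CPM in WT-Sham and 121.3 to 143.3 CPM in miKO-Sham, and this fall was that of Slc1a3, a glutamate transporter, which fell by 0.73 on the log2 scale. Without Slc1a3, the other 9 summed to 9.49 to 17.4 CPM in WT-Sham and 21.2 to 26.3 CPM in miKO-Sham, and the median log2 fold change of the 10 markers was 1.02, with 8 above 0. The oligodendrocyte markers summed to 192.7 to 220.6 CPM and 151.5 to 190.6 CPM, of which Cnp and Mag made up most, and the myelin gene Mag fell by 0.74. Without these genes, the other 10 summed to 29.9 to 36.7 CPM and 43.9 to 49.1 CPM, and 7 of 9 tested markers had a log2 fold change above 0 (median 1.18). Several of these markers were near 0 counts, such as Cldn11 with 1, 0 and 0 in WT-Sham and 0, 2 and 0 in miKO-Sham. The endothelial and mural markers summed to 25.2 to 33.9 CPM and 18.5 to 26.6 CPM, and the adhesion gene Pecam1 fell by 1.71. Without Pecam1, the other 12 summed to 10.4 to 17.2 CPM and 11.9 to 22.8 CPM, and 10 of 12 tested markers were above 0 (median 1.10). Here too some were near 0 counts, such as Rgs5 with 0, 0 and 0 in WT-Sham and 7, 1 and 0 in miKO-Sham. For astrocytes, oligodendrocytes and vessels, the genes left out of these sums were chosen after their values were seen, and each had a negative log2 fold change. Without them the astrocyte and oligodendrocyte sums were higher in miKO-Sham with no overlap of groups, and the vessel sums overlapped. With all members, the astrocyte and oligodendrocyte sums were lower in miKO-Sham with no overlap, so that no direction is read from these sums. For dendritic cells, 1 of 9 tested markers rose and 3 fell. The 3 that fell include Siglech, counted above as a microglia marker, and the 1 that rose, Ccr7, lost its call with miKO-Sham replicate 2 placed in batch 1. Of the tested markers of the other types, 1 of 5 rose and 2 fell for B cells, and 1 of 7 rose for neurons. For astrocytes 2 of 10 rose and 1 fell, and for oligodendrocytes 1 of 9 rose and 1 fell. For vessels 2 of 12 rose and 1 fell, and none of 4 passed for T and NK cells. In bulk RNA, fewer cells of a type and less RNA per cell cannot be told apart, and the part of other cell types in the changes above was not tested.

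The same contrast was available after tFCI, in 6 other libraries, and the difference between the 2 contrasts was tested as an interaction in the same fit. It passed an adjusted p of 0.05 for 629 of 16451 genes (3.82%), 206 with a more positive and 423 with a more negative value after tFCI. In 328 of the 629 the genotype difference had opposite signs in Sham and after tFCI, in 278 it had the same sign and was smaller after tFCI, and in 23 it was larger. A sign was counted whether or not its difference passed, so that the 328 include values near 0, such as 0.03 for Ccl9 after tFCI. The count of 629 rested on single Sham libraries, being 314 without WT-Sham replicate 3, 331 without WT-Sham replicate 2 and 388 without miKO-Sham replicate 1. Of the 1411 genes that rose in miKO-Sham, 298 also rose in miKO-tFCI vs. WT-tFCI and 23 fell there, and of the 1119 that fell, 381 also fell and 11 rose, where 8.79% of all genes were called.

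**Figure D5:**
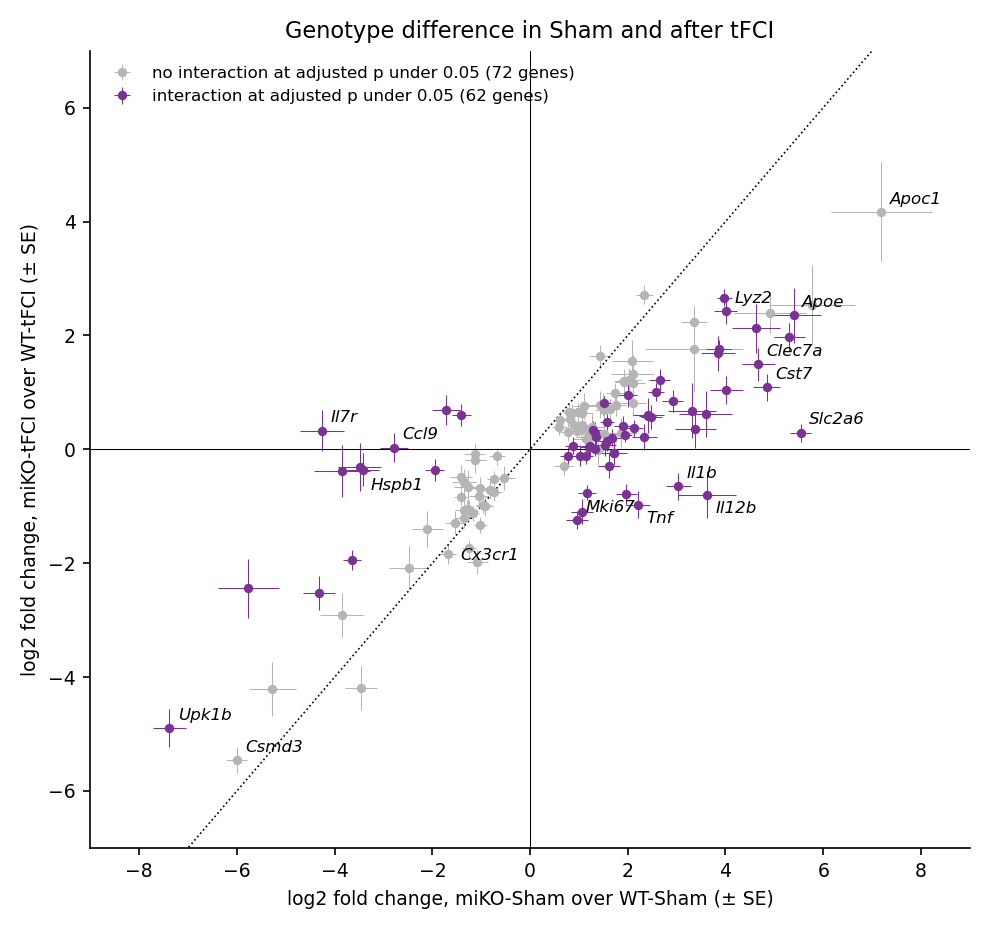
Log2 fold change of miKO over WT in Sham (horizontal axis) and after tFCI (vertical axis) for the 134 genes followed through the alternatives, with standard errors as bars and the dotted line marking equal values. The 62 genes with an interaction at an adjusted p under 0.05 are purple; Slc2a6 lies far to the right near 0 on the vertical axis, and Il1b and Tnf lie right of and below 0.

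Slc2a6 showed the contrast between Sham and tFCI plainly. After tFCI its CPM were 102, 133 and 134 in WT and 119, 176 and 158 in miKO, a log2 fold change of 0.29 against 5.54 in Sham. For Il1b they were 411, 531 and 491 in WT and 524, 224 and 229 in miKO (log2 fold change -0.65, edgeR adjusted p = 0.0996), against 3.03 in Sham. Csmd3 and Cx3cr1 were low in miKO in both settings, with -5.46 and -1.84 after tFCI against -6.01 and -1.68 in Sham, and Hdac3 had -0.71 against -0.81. The homeostatic list had a median of -0.75 after tFCI, with 16 members lower, and the injury-associated list a median of 0.84, with 15 higher and 2 lower, against -0.51 and 2.03 in Sham.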

How the data were processed

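RNA of sorted microglia was sequenced in 12 libraries, of which the 3 WT-Sham and 3 miKO-Sham are described. Libraries were made with SMART-Seq v4, which does not mark strand. The submitters' processing notes name FastQC 0.11.9, Trim Galore, HISAT2 2.2.1, SAMtools, HTSeq 1.99.2 and the builds mm10 and GRCm38.p6. The deposited values are read counts per gene made by the authors, without normalization; the strand setting and the annotation release are not given in the sources used here. Of all deposited counts in the 6 Sham libraries, 30.68% to 35.37% lay on genes and 49.49% to 52.49% on no gene; lines that name no gene were left out of library sizes and tests. Of 55401 gene identifiers, 55141 were given symbols by GENCODE M21 on GRCm38. The labels name a CytoFLEX SRT for sorting and the paper's methods a Cytek Aurora.

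Counts were analysed with edgeR 4.0.16 in R 4.3.3: filterByExpr, TMM and a quasi-likelihood fit of group and batch over all 12 libraries (7 residual degrees of freedom), with Benjamini-Hochberg adjustment. Genes were called where the log2 fold change passed 0.58 in either direction and the adjusted p was under 0.05. Gene lists were described by counts and medians, with no test. Samples were grouped by the labels, and the replicates are pools of animals, so that p-values measure the spread between these pools. The members, lists and thresholds were chosen with earlier results of these data known. Named genes were Hdac3 and Cx3cr1, genes from the 15 largest rises and 15 largest falls and the 8 largest level differences (called, protein-coding, at least 10 CPM, groups apart, a library above 3 counts in both groups, with neither an overlapping gene on the other strand nor a near-identical copy), and up to 6 called members and the most abundant member of each list; others are marked as chosen after their values were seen. Near-identical copies were genes sharing 20% or more of their 50-base words with a gene elsewhere. Reads of Cx3cr1, Il1b, P2ry12, Ctsb with Fdft1, Ctsz, Lamp1, Ctsa, Stab1, Folr2, Cd22, H2-Oa, Ifi30, Lilrb4a, Tlr3, Bcl3, Oasl1, Aldoa, Bad, Cdkn1a, Jun and mt-Co1 can be shared with a gene on the other strand. Promoter stretches came from RefSeq (GRCm38.p6), where 11011 of the tested genes had a window; Upk1b, Csmd3 and Apoc1 were among the named genes with none. Alternatives were DESeq2 1.42.0, RLE factors, other filters, no batch term, a replicate block, Sham or batch 2 libraries alone, each Sham library left out, and other placements of the close pair. The last of these, with replicate 2 in batch 1 or the pair averaged there, were added after seeing the data. Results of some genes that the rule names are not reported here.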

Additional observations from a re-analysis of the deposited data

Results flagged for a closer look

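For 62 of the 134 genes followed through the alternatives, the genotype difference in Sham differed from that after tFCI (interaction in the edgeR fit, adjusted p under 0.05; 3.82% of all genes tested passed). Most of the 134 were chosen for their difference in Sham, which enters the interaction, so that nothing is read from that share. Each value below is the log2 fold change of miKO over WT after tFCI minus that in Sham. All 62 were called in Sham; 17 had opposite signs in the 2 settings and 45 were smaller after tFCI with the same sign. Of the 17, Tnf, Tlr2, Top2a, Mki67 and Bcl2a1d also passed an adjusted p of 0.05 after tFCI in the edgeR fit. The others did not pass there, and some lay near 0, such as Ccl9 at 0.03 and Gins1 at -0.06.

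Among genes that fell most in miKO-Sham, the interaction was 2.49 for Upk1b, 3.32 for Mycl, 1.80 for Abcb4, 4.59 for Il7r, 3.46 for Col6a3, 1.71 for Tnfrsf13b and 3.16 for Gprasp2. Among those that rose most it was -5.25 for Slc2a6, -3.04 for Apoe, -3.33 for AB124611, -3.76 for Cst7, -2.50 for Aoah, -2.98 for Cd300lf, -1.58 for Lyz2, -1.31 for Slc39a4, -2.10 for Cd44, -2.16 for Plin2 and -2.97 for Ccl5. Slc2a6 had the largest of these values (standard error 0.26, edgeR adjusted p = 7.04e-08). Il7r was -4.27 in Sham and 0.33 after tFCI.

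Among injury-associated, homeostatic and phagocytic genes the interaction was -3.18 for Clec7a, -3.03 for Lilrb4a, -2.07 for Axl, -0.91 for Fcrls, -1.57 for Scarb1, -2.13 for Fcgr4 and -1.92 for C5ar1. Among inflammatory genes it was -3.68 for Il1b, -3.18 for Tnf, -4.42 for Il12b, 2.81 for Ccl9, -2.15 for Tlr2 and -1.47 for Bcl3. Il1b and Tnf were higher in miKO-Sham, by 3.03 and 2.21, and at -0.65 and -0.97 after tFCI (edgeR adjusted p = 0.0996 and 0.0163). Among interferon and presentation genes it was -1.76 for Ifi204, -1.47 for Ifi207, -1.26 for Bst2, -1.90 for Ifi30, -1.32 for H2-D1 and -1.13 for B2m.

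Among lipid, lysosomal and glycolytic genes the interaction was -1.13 for Fdft1, -1.04 for Abcg1, -0.95 for Npc2, -0.71 for Plin3, -1.05 for Ctsb, -1.44 for Ctsz, -1.17 for Ctsd and -1.09 for Eno1. Among proliferation and survival genes it was -1.93 for Top2a, -2.20 for Mki67, -1.78 for Gins1, -1.78 for Prim1, -1.68 for Cdkn2d, -0.81 for Cdkn1a and -2.76 for Bcl2a1d. Mki67 was 0.96 in Sham and -1.24 after tFCI. Among heat shock and early genes it was 3.07 for Hspb1, 1.59 for Hspa1b, 2.02 for Hsph1 and -1.16 for Ier3. Among ion channels and markers of other cells it was -1.83 for Kcnj10, -1.51 for Trpm2, -1.43 for Folr2, -1.82 for Cd22, -2.64 for Rbfox3 and 2.41 for Pecam1.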

How the results depend on the processing

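The number of genes called in miKO-Sham vs. WT-Sham stayed within 1.5 times the 2530 reported under each alternative run, from 1970 without WT-Sham replicate 3 to 3051 with no filter on low counts, and 2773 by DESeq2. Hdac3 was called lower in all 19 settings, from -0.73 to -1.005 on the log2 scale. The interaction count of 629 moved more: 999 by DESeq2, 1272 with no filter on low counts, 303 with no batch term, and from 314 (without WT-Sham replicate 3) to 901 (without miKO-Sham replicate 3) when 1 Sham library was left out, with 331 without WT-Sham replicate 2 and 388 without miKO-Sham replicate 1. Whether replicate numbers pair the samples could not be decided, since number 1 is also batch 1 and deviations within a group cancel. The deviations from the group means of WT-Sham and miKO-Sham correlated at 0.291, -0.157 and 0.427 for numbers 1 to 3. For unlike numbers they ran from -0.441 to 0.36, the latter for WT-Sham replicate 1 with miKO-Sham replicate 2. With a replicate block, 2490 genes were called, 2443 of them shared with the 2530. With 1 library left out, the remaining libraries of its group were assumed to vary like the other groups. Depth limited the lowest genes: 90 of those that rose and 56 of those that fell had no library above 3 counts in the lower group. Their folds were not given singly, but they enter the counts of called genes and the list medians. An example is Cldn5 among the vessel markers, with 3, 0 and 0 counts in WT-Sham.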
